A study of Mus musculus with 18 samples.

Results

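Macrophages lacking 14-3-3ε were compared directly with macrophages lacking progranulin (PGRN) after polarization to the M2 state. The comparison used 6 of the 18 RNA-seq libraries in the study, 3 labelled 14-3-3ε knockout and 3 labelled PGRN knockout, chosen by genotype and treatment alone, and no wild-type library entered it. All libraries came from bone marrow-derived macrophages of C57BL/6 mice, cultured for 7 days in α-MEM with 10% FBS and M-CSF at 10 ng/ml. M2 cells then received 20 ng/ml IL-4 for 18 h. The same knockouts were also polarized to M1, using LPS at 100 ng/ml together with interferon gamma at 20 ng/ml for 18 h, and those 6 libraries served as another setting for the comparison. How either knockout was made, and the animals' age and sex, are not stated in the labels. Nor do the labels say whether the replicates of a group were separate animals, so the p-values measure the spread between these libraries, which may be technical. Of the 43309 genes in the table, 18442 were tested, after genes that failed to reach 1 normalized count in 3 of the 6 libraries were set aside. Values of a gene are given for replicates 1, 2 and 3 in order, and a log2 fold change is the 14-3-3ε knockout minus the PGRN knockout, with its standard error (SE) from limma over 3 libraries a side.

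Progranulin, encoded by Grn, is a secreted glycoprotein that is also carried to lysosomes, by sortilin or together with prosaposin, where it is cut into granulins. Its loss is known for lysosomal dysfunction in microglia and neurons, and progranulin binds TNF receptors. 14-3-3ε, encoded by Ywhae, belongs to a family of dimeric adaptor proteins that bind phosphorylated serine and threonine motifs. The 14-3-3 proteins retain factors such as TFEB and FOXO in the cytoplasm, and the study's title joins 14-3-3ε with TNF receptor 2 in a signalling complex. IL-4 acts through STAT6 and gives macrophages the M2 pattern of arginase, resistin-like and chitinase-like proteins and C-type lectins. A difference between the knockouts can arise on either side, and the sides cannot be told apart in a comparison without wild-type libraries.

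The 6 libraries held 13654295 to 58782676 recovered reads, a 4.31-fold range in depth that size factors had already scaled. Replicates of a group correlated at 0.984 to 0.991 over well-measured genes on the log2 scale, and libraries of different genotypes at 0.922 to 0.941. Replicate 2 of the 14-3-3ε knockout stood apart. Its normalized count of Xist, the RNA of the inactive X chromosome, was 3123, against 2.03 and 67.0 in the other 14-3-3ε-knockout libraries and 0 to 0.679 in the PGRN-knockout libraries. The Y-linked gene Ddx3y was at 1019, 423 and 1073 in 14-3-3ε-knockout replicates 1, 2 and 3 and at 1053, 1044 and 999 in the PGRN-knockout libraries, so replicate 2 held transcripts of both sexes. Without that library 4601 genes passed the threshold in place of 5441, and 4397 of these were shared with the full comparison, each in the same direction. Sex composition therefore moved with 1 library of 1 group, and its part in the results was not tested.

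Macrophage markers were present in every library, with Csf1r, the M-CSF receptor, at 23472, 25529.6 and 21367 in the 14-3-3ε knockout and 31736, 24268 and 29262 in the PGRN knockout. The ranges of Csf1r overlapped (log2 fold change -0.27 ± 0.11 SE, adjusted p = 0.0971), as did those of Emr1, which encodes F4/80 (-0.23, adjusted p = 0.132), Fcgr1 (-0.33, adjusted p = 0.147) and the LPS co-receptor gene Cd14 (0.13, adjusted p = 0.604). The phagocyte genes Cd68, Itgam, Mertk and Spi1 were lower in the 14-3-3ε knockout, at log2 fold changes of -0.84, -1.05, -1.60 and -0.50 (adjusted p = 7.72e-05, 0.00946, 4.23e-05 and 0.00222). The IL-4 state was also present in both groups: Arg1 had normalized counts of 12288, 12444 and 11169 and 10640.2, 10322 and 9184, and Mrc1, the mannose receptor, 35906, 29678 and 28095 and 31481, 29234 and 29076. Mrc1 did not pass the test (log2 fold change 0.05 ± 0.09 SE, adjusted p = 0.711). In bulk RNA, fewer cells of a type and less RNA per cell cannot be told apart.

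The targeted genes followed their labels to different degrees. Grn was at 26971, 27845 and 26102 normalized counts in the 14-3-3ε-knockout libraries and at 24.4, 23.9 and 32.2 in the PGRN-knockout libraries, an almost complete loss in the latter (log2 fold change 9.93 ± 0.11 SE, adjusted p = 2.64e-09). Ywhae was at 5088, 4362 and 5131 in the 14-3-3ε-knockout libraries and at 7949, 7432 and 7792 in the PGRN-knockout libraries. The groups did not overlap (log2 fold change -0.67 ± 0.07 SE, adjusted p = 0.000211), but the gene was 1.59-fold lower, not lost. Gene-level values do not show whether the remaining Ywhae reads came from exons outside a deleted segment or from cells that kept the gene, so "14-3-3ε knockout" stands for the label throughout. In GENCODE M21 coordinates of GRCm38, Ywhae lies at chr11:75732869-75765845 and Grn at chr11:102430315-102437048, both on the plus strand. Among genes with a mean of at least 5 CPM within 10 Mb, 105 of 226 around Ywhae (46.5%) and 95 of 199 around Grn (47.7%) passed the threshold, with median log2 fold changes of -0.05 and -0.06. The share over all genes at that level was 41.3%.

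Across all genes tested, 5441 passed an adjusted p of 0.05, 29.5% of those tested. Of these, 2446 (13.3% of tested genes) were higher and 2995 (16.2%) lower in the 14-3-3ε knockout, and 747 and 632 of them differed more than 2-fold. Among the 10927 genes with a mean of at least 5 CPM the shares were larger, 41.3% in all, with 17.2% higher and 24.1% lower. These are the backgrounds for the gene lists described next, most of whose members are well expressed. The median log2 fold change was -0.016 over all tested genes and -0.042 over the well-measured ones. The replicate ranges of the groups did not overlap for 5423 of the called genes. Non-overlap alone was common, at 44.9% of tested genes, and was not used as evidence. Scaling by library totals in place of the authors' size factors raised the median of all genes by 0.17 and moved the share of calls that were higher from 45% to 72.6% (4644 higher and 1749 lower). The directions reported here are relative to the size factors.

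**Figure D1:**
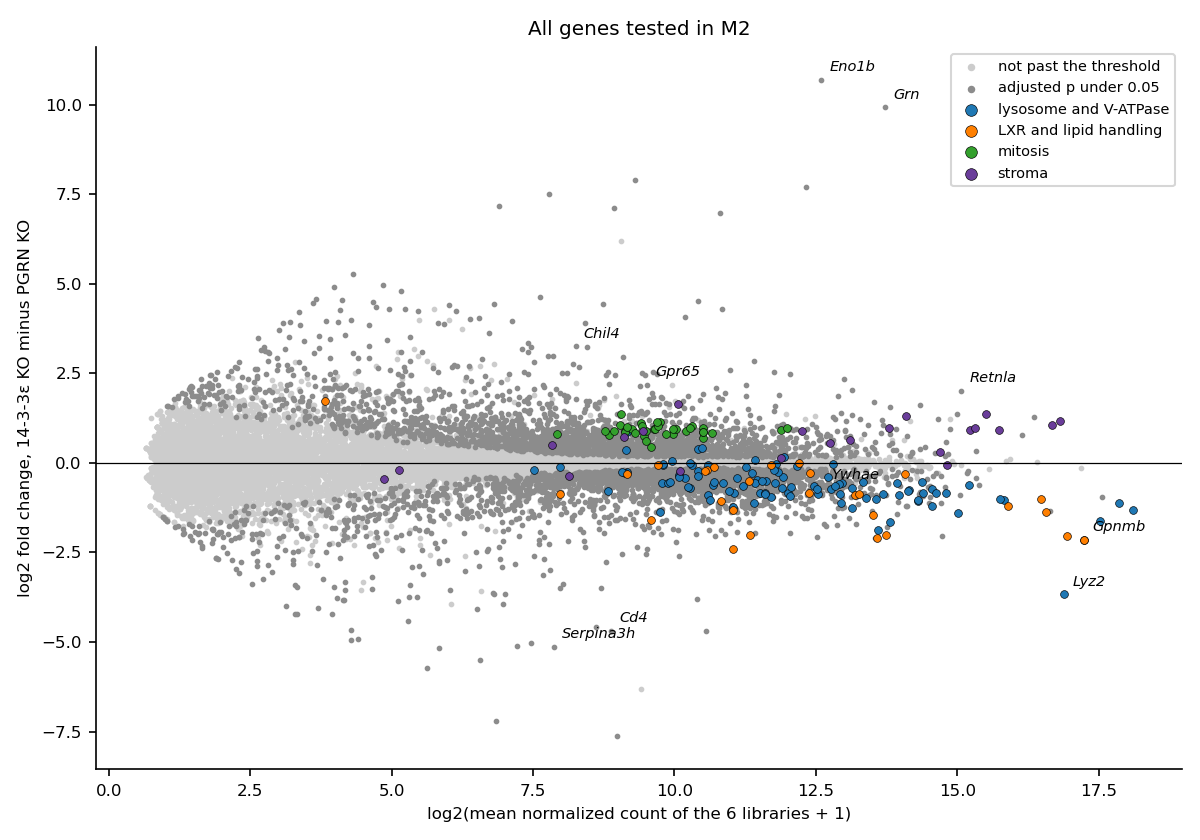
Log2 fold change (14-3-3ε knockout minus PGRN knockout, y axis) against the log2 mean normalized count of the 6 M2 libraries (x axis) for all 18442 genes tested; dark grey marks adjusted p under 0.05 and colours mark 4 groups of lists. Lysosomal (blue) and lipid-handling (orange) genes lie mainly below 0, mitotic genes (green) lie above 0, and Grn lies at 9.93.

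Genes of the lysosome were lower in the 14-3-3ε knockout than in the PGRN knockout, across all 3 lists of lysosomal genes. Of 48 lysosomal hydrolases, 34 fell, 1 rose and 13 did not pass the test (median log2 fold change -0.67). Of 34 lysosomal membrane proteins and cofactors, 28 fell and 0 rose (median -0.61). Of 18 subunits of the V-ATPase, the proton pump that acidifies lysosomes, 17 fell and 0 rose (median -0.68). The share of all well-measured genes that fell was 24.1%, and their median was -0.042. The lists were chosen with earlier results of these data known, so the counts describe these genes and are not independent evidence of a direction.

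Ctsd, the aspartic protease cathepsin D, had normalized counts of 86418, 95232 and 91531 in the 14-3-3ε-knockout libraries and 311627, 232850.0 and 310551 in the PGRN-knockout libraries. Every 14-3-3ε-knockout library was below every PGRN-knockout library (log2 fold change -1.63 ± 0.11 SE, adjusted p = 3.33e-05). Ctsb, cathepsin B, was at 154038, 150565 and 142323 and 342551, 297033 and 341792 (log2 fold change -1.13 ± 0.08 SE, adjusted p = 2.11e-05). The lower group again did not overlap the higher. Psap encodes prosaposin, the precursor of the saposins and a carrier of progranulin. Its values were 177778, 160084 and 146248 against 415807, 372513 and 415918 (log2 fold change -1.32 ± 0.09 SE, adjusted p = 1.91e-05). Further hydrolases fell by similar amounts: the phospholipase-family member Pld3 by 1.64, the asparaginyl endopeptidase Lgmn by 1.41, the iduronidase Idua by 1.36 and the galactosidase Gla by 1.13 on the log2 scale (adjusted p = 5.54e-06, 6.64e-06, 6.57e-06 and 7.08e-06). Lipa, lysosomal acid lipase, fell by 1.22 (adjusted p = 2.48e-05).

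Lyz2, lysozyme, an antibacterial enzyme that phagocytes secrete and deliver to phagosomes, had the lowest log2 fold change of the hydrolase list. Its counts were 29558, 8510.2 and 21932 in the 14-3-3ε knockout and 222011, 208626 and 239199 in the PGRN knockout (log2 fold change -3.66 ± 0.49 SE, adjusted p = 0.00504). The lowest value belonged to replicate 2, and even the highest 14-3-3ε-knockout library held far less than any PGRN-knockout library. Without replicate 2 the log2 fold change of Lyz2 (M2) was -3.13 (adjusted p = 3.44e-05). Lyz2 is also the locus into which the LysM-Cre driver of many myeloid knockouts is inserted. The sources used here do not say whether a Cre driver was used, and its part in this value was not tested. In the membrane list, Gpnmb, a glycoprotein known to rise when lysosomes are stressed, was at 52335, 59118 and 58840.1 against 276490.0, 202970.0 and 282260.0 (log2 fold change -2.15 ± 0.13 SE, adjusted p = 2.56e-05). Mfsd12, a cysteine importer of lysosomes and melanosomes, fell by 1.26, the tetraspanin Cd63 by 0.89, and Sort1, the sortilin receptor that takes progranulin into the cell, by 1.22 (adjusted p = 9.18e-06, 1.54e-05 and 2.21e-05). The 17 V-ATPase genes that fell were led by Atp6v0d2, a subunit enriched in osteoclasts and IL-4-treated macrophages, at 5179, 5365 and 5366 against 19739.5, 18237 and 20189.9 (log2 fold change -1.87 ± 0.06 SE, adjusted p = 9.46e-07). Atp6v1b2, Atp6v0a1 and Atp6v1e1 fell by 1.03, 1.08 and 0.93 (adjusted p = 9.74e-06, 2.29e-05 and 1.89e-05).

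**Figure D2:**
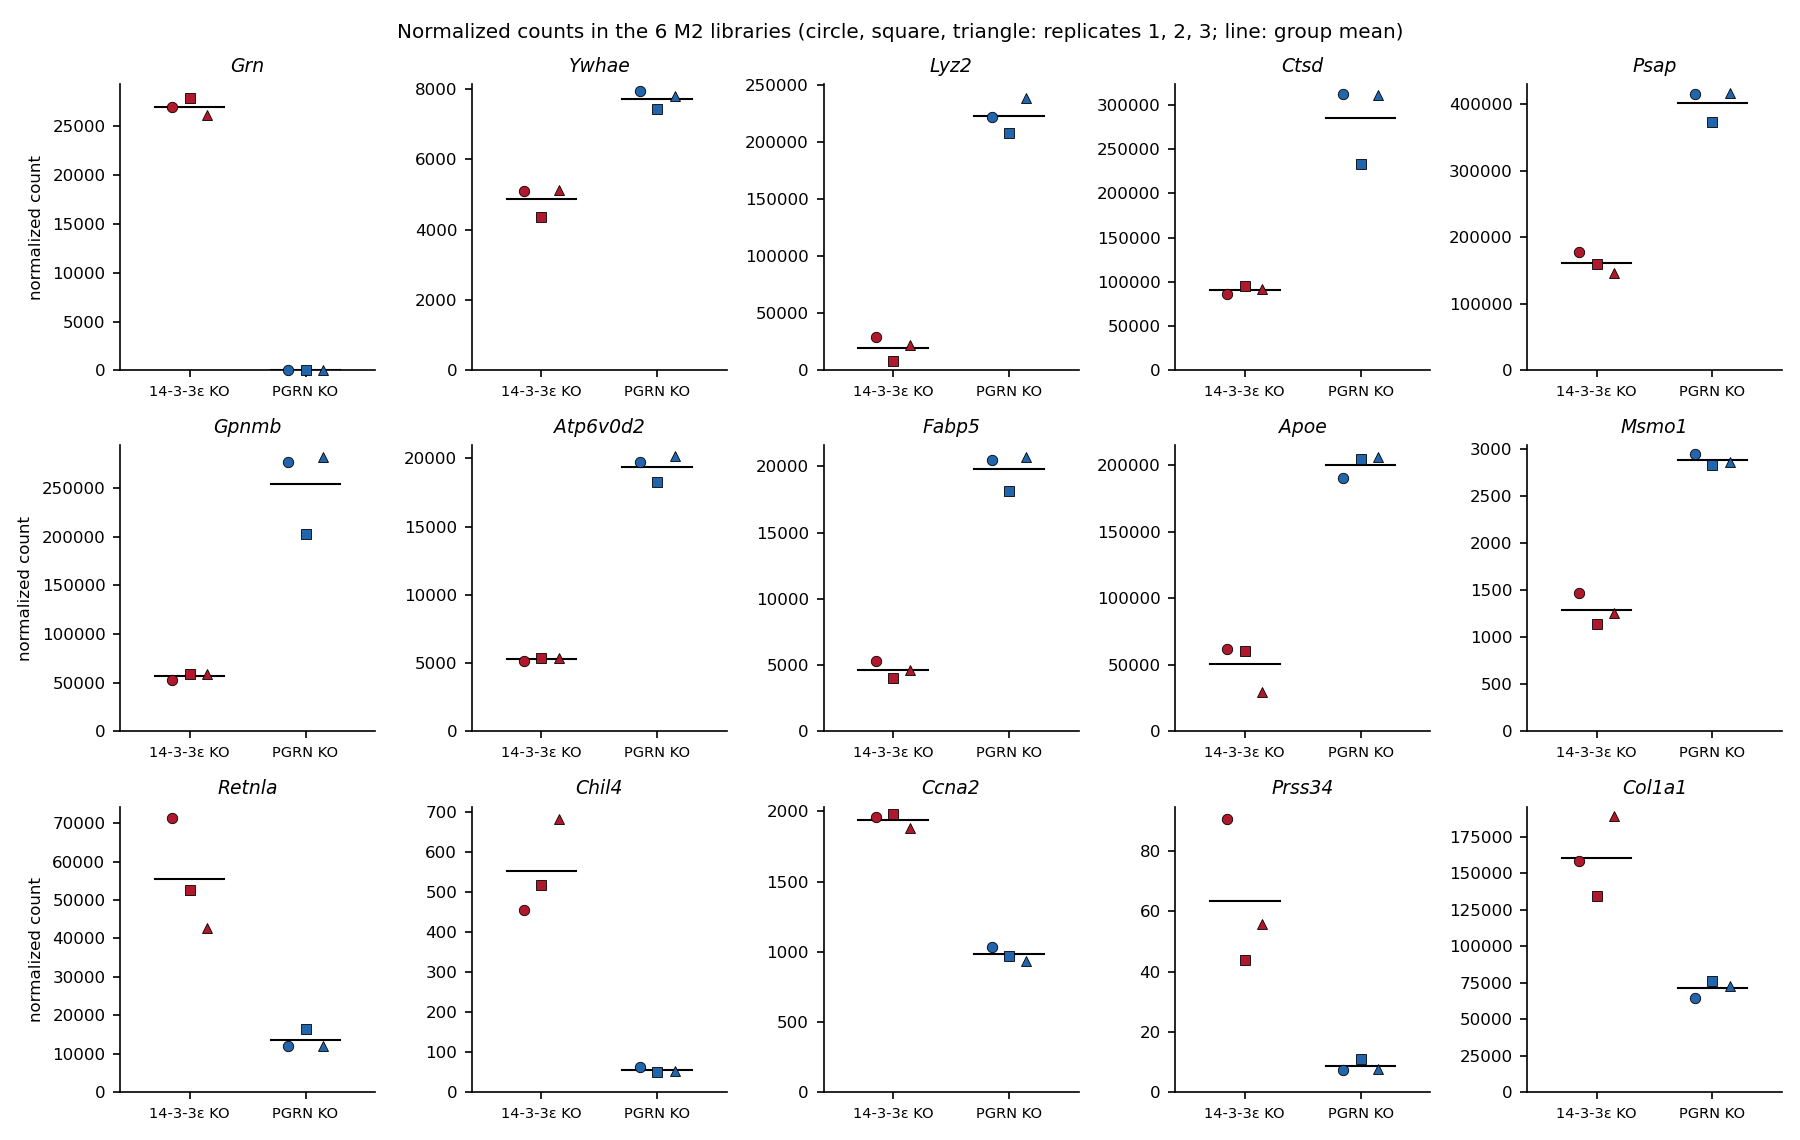
Normalized counts (y axis, linear, starting at 0) of 15 genes in each of the 6 M2 libraries; circles, squares and triangles are replicates 1, 2 and 3 and lines are group means. Grn is near 0 in the PGRN knockout, the lysosomal and lipid genes Lyz2 to Msmo1 are lower in every 14-3-3ε-knockout library, and Retnla, Chil4, Ccna2, Prss34 and Col1a1 are higher in every one.

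The promoters of 5 of these genes are shown because they hold TCACGTG, the E-box core of the element through which TFEB and TFE3 act on lysosomal genes, on either strand. Each line gives the 250 bases before the transcription start, 5′ to 3′ on the gene's strand, from RefSeq on GRCm38.p6, with TCACGTG or its reverse complement in capitals. The window at the upstream Lgmn start, chr12:102439729-102439978, minus strand, held no match and is not shown. The windows lie at chr7:142387828-142388077, minus strand (Ctsd), chrX:134601006-134601255, minus strand (Gla), chr12:102439093-102439342, minus strand (Lgmn, the downstream of its start sites), chr8:13158911-13159160, plus strand (Lamp1) and chr16:44139260-44139509, minus strand (Atp6v1a).
Ctsd: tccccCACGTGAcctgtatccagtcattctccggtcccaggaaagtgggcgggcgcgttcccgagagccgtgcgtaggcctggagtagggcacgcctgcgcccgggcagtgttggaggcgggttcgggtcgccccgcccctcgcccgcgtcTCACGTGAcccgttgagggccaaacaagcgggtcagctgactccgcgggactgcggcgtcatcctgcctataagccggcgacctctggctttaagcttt
Gla: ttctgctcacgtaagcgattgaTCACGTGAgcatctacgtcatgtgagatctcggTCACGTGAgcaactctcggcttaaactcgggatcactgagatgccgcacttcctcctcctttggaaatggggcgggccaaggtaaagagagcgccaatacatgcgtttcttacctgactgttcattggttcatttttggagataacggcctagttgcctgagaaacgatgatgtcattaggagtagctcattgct
Lgmn: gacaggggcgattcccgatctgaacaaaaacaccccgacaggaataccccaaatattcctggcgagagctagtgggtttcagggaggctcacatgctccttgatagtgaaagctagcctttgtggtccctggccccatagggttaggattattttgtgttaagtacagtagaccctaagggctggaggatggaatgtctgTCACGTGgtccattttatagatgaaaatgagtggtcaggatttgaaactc
Lamp1: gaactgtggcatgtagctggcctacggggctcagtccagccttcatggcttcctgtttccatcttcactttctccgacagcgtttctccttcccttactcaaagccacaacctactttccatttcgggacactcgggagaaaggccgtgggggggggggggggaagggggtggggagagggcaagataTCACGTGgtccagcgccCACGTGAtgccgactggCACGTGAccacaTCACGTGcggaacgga
Atp6v1a: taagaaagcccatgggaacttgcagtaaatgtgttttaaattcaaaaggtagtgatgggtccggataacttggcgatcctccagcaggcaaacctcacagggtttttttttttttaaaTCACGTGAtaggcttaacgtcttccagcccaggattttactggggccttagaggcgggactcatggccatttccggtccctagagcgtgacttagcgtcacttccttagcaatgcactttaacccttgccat

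Both strands were searched, and a TCACGTGA site counts on each. A gene was counted if the window of any of its starts held the letters. The letters were found in 9 of 40 hydrolase genes with a promoter in the table (22.5%), 7 of 29 membrane and cofactor genes (24.1%) and 2 of 12 V-ATPase genes (16.7%), against 635 of 11731 genes tested in M2 (5.41%) and 968 of 27025 genes overall (3.58%). Of the genes of the 3 lists with TCACGTG, 15 of 18 fell (median -0.65), and of those without it 48 of 63 fell (median -0.66). A match is a description of the sequence and not a site of binding. Lamp1 and Atp6v1a, chosen for their promoters after their values were seen, fell by 0.62 and 0.99 on the log2 scale (adjusted p = 0.000131 and 3.01e-05).

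Regulators at the lysosome surface and autophagy genes were mostly lower as well. Among 26 genes of the TFEB family, the Rag GTPases and mTORC1 control, 16 fell and 1 rose (median -0.28). Rragd, a Rag GTPase and itself a TFEB target, was at 193, 159 and 181 against 661, 594 and 654 (log2 fold change -1.84 ± 0.09 SE, adjusted p = 6.57e-06). Sesn1 and Tsc1, inhibitors of mTORC1, fell by 1.05 and 0.86, and the folliculin partner Fnip1 by 0.56 (adjusted p = 2.24e-05, 1.7e-05 and 0.0001). In the autophagy list 18 of 29 genes fell and 2 rose (median -0.26), and 10 fell when libraries were scaled by their totals. Gabarapl1, an autophagosome protein, fell by 1.16, the endosomal tethering subunit Vps18 by 0.57 and the cargo receptor Sqstm1 by 0.48, and Wipi1 rose by 0.63 (adjusted p = 1.91e-05, 0.000253, 0.000341 and 0.000178).

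Of the 33 tested genes around progranulin and TNF, 5 rose, Grn itself among them, and 12 fell (median -0.10), and with scaling by library totals 8 rose and 7 fell. Leaving out replicate 3 of the 14-3-3ε knockout reduced the rises to 3. Besides Psap and Sort1, the cytokine gene Tnfsf12, which encodes TWEAK, was lower, at 1059, 890.1 and 980.0 against 2240.2, 1956 and 2175 (log2 fold change -1.12 ± 0.08 SE, adjusted p = 2.56e-05). Tnfrsf1b, which encodes TNF receptor 2, and Tnf itself were looked up because of the study's title. Tnfrsf1b was at 3706, 3982 and 3661 in the 14-3-3ε knockout and 7516, 6279 and 7708 in the PGRN knockout (log2 fold change -0.92 ± 0.08 SE, adjusted p = 8.05e-05). Tnf fell by 0.58 (adjusted p = 0.0229), and Tnfrsf1a, the gene of TNF receptor 1, did not pass the test (0.01, adjusted p = 0.935). In the 14-3-3 family, 4 of 7 genes fell and 1 rose. Ywhah was at 4794, 5045 and 4925 against 7138, 6855 and 7309 (log2 fold change -0.53 ± 0.05 SE, adjusted p = 0.000127), Ywhag differed by -0.24 (adjusted p = 0.00823) and Ywhaq by 0.28 (adjusted p = 0.0243). The last 2 were small and unsteady: Ywhag lost its call without PGRN-knockout replicate 3 (adjusted p = 0.0501), and Ywhaq without PGRN-knockout replicate 1 or 3 or 14-3-3ε-knockout replicate 3 (0.0871, 0.078 and 0.077). The family's count of falls was 2 without PGRN-knockout replicate 3 and 2 with scaling by library totals.

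Genes of lipid handling had the lowest median of the 31 pathway lists, the targeted genes aside. Of 28 genes of LXR signalling and lipid handling, 22 fell and 0 rose in the 14-3-3ε knockout (median log2 fold change -0.89). LXR receptors sense oxysterols and drive cholesterol export, and the list also holds the fatty acid carriers and the genes of lipid-laden macrophages. Apoe, the apolipoprotein that carries exported cholesterol, was at 62317, 60718 and 29991 against 190342, 204437 and 206106 (log2 fold change -2.05 ± 0.30 SE, adjusted p = 0.00539). Replicate 3 was the lowest, and every 14-3-3ε-knockout library lay far below the PGRN knockout. The fatty acid-binding protein genes Fabp5 and Fabp4 differed about as much. Fabp5 was at 5319, 4038 and 4613 against 20472, 18149.9 and 20731 (log2 fold change -2.09 ± 0.10 SE, adjusted p = 8.08e-06), and Fabp4 at 1169, 1012 and 901 against 4210.2, 3930.4 and 4256 (log2 fold change -2.01 ± 0.09 SE, adjusted p = 4.99e-06). Within each group the libraries lay close together and the groups did not overlap. Lgals3, the lectin galectin 3 that marks damaged lysosomes, fell by 1.36 and the triglyceride lipase gene Pnpla2 by 1.06 (adjusted p = 1.1e-05 and 2.41e-05). Spp1, osteopontin, was at 65399, 60909.8 and 55668 against 130717, 103841 and 131856 (adjusted p = 0.000208).

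Genes of cholesterol synthesis and uptake, which SREBP2 switches on when membrane cholesterol is low, were also lower: 21 of 25 fell and 0 rose (median -0.63). Msmo1, a sterol C4-demethylase, was at 1471, 1139.9 and 1259 against 2948, 2836 and 2858 (log2 fold change -1.17 ± 0.09 SE, adjusted p = 3.41e-05). Sc5d, Dhcr7 and Tm7sf2, which act in the last steps to cholesterol, fell by 0.91, 1.07 and 1.12 (adjusted p = 3.84e-05, 6.37e-05 and 0.000109). The LXR and lipid-handling list and the synthesis list were thus both lower in the same libraries, though the former holds more than export genes. In M1 the synthesis list was nearer to level, with 6 of 25 genes lower and a median of -0.20, but the test of the difference between M2 and M1 called 4 of its genes.

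**Figure D3:**
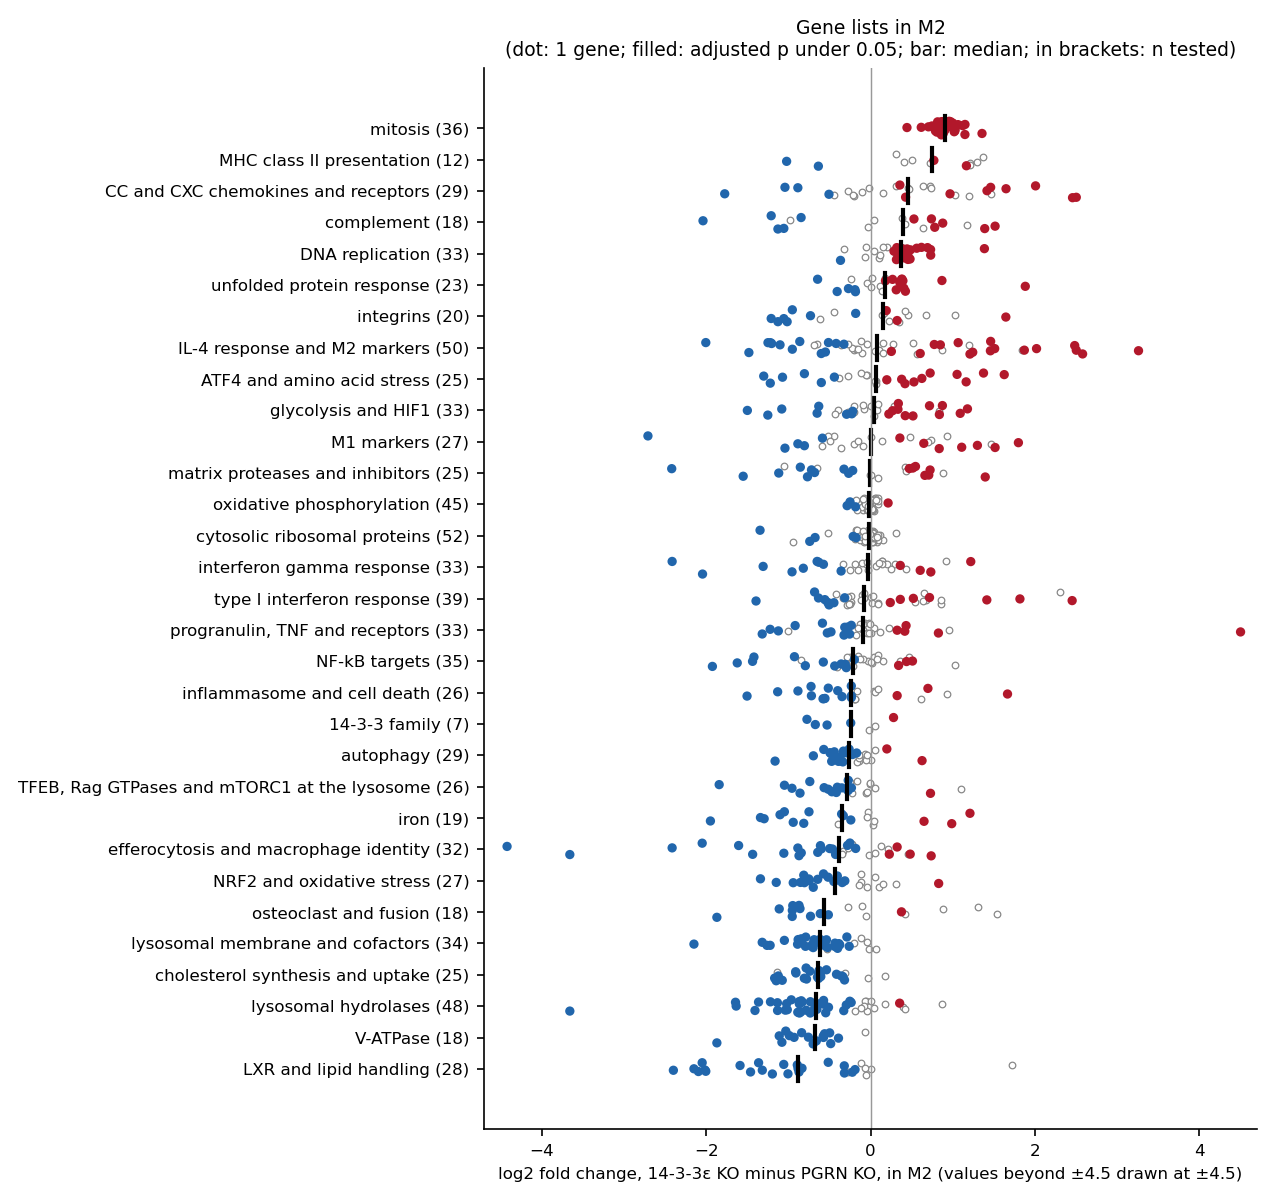
Log2 fold change in M2 (x axis) of every tested gene in 31 pathway lists, all but the targeted genes (y axis, number tested in brackets), ordered by the median (black bar); filled dots have adjusted p under 0.05, red higher and blue lower in the 14-3-3ε knockout. The lipid, V-ATPase, lysosomal and cholesterol lists have medians between -0.89 and -0.61, and the 36 mitotic genes all lie above 0.

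Genes of phagocytic identity were lower as well. In the list of efferocytosis and macrophage identity, 19 of 32 genes fell and 4 rose (median -0.39), with 2 rises when PGRN-knockout replicate 3 was left out. Mertk, the receptor tyrosine kinase that recognises apoptotic cells through bridging ligands, was at 852, 668 and 615 against 2072, 2214 and 2152 (log2 fold change -1.60 ± 0.11 SE, adjusted p = 4.23e-05). Sirpa, the receptor of the CD47 signal that blocks phagocytosis, fell by 0.88, the endosomal glycoprotein gene Cd68 by 0.84 and the myeloid transcription factor gene Cebpa by 0.64 (adjusted p = 7.59e-05, 7.72e-05 and 7.3e-05). Itgb2, the shared chain of the leukocyte integrins, was at 14469, 15671 and 13511 against 34334, 27215 and 34116 (log2 fold change -1.13 ± 0.10 SE, adjusted p = 9.32e-05), and its partner Itgax fell by 1.21 (adjusted p = 0.000155). Of 20 integrin genes in all, 7 fell and 3 rose. No integrin rose without PGRN-knockout replicate 1 or 3 or 14-3-3ε-knockout replicate 3, 1 rose without 14-3-3ε-knockout replicate 1 or 2, and 6 rose with scaling by library totals. Complement genes were divided, with 6 of 18 higher and 5 lower: the receptor C3ar1 fell by 0.84 and the C1 inhibitor gene Serping1 rose by 0.74 (adjusted p = 0.000122 and 0.00238). Without PGRN-knockout replicate 2 there were 10 complement rises. Among 18 genes of osteoclasts and cell fusion 10 fell and 1 rose (median -0.56). Those with the smallest adjusted p were Atp6v0d2, the chloride exchanger genes Clcn7 (-0.95, adjusted p = 1.61e-05) and Ostm1 (-0.61, adjusted p = 7.33e-05) and the proton pump gene Tcirg1 (-1.11, adjusted p = 5.23e-05), all of which also serve lysosomes.

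Genes of the IL-4 response moved in both directions. Of 50 tested genes of the IL-4 response and M2 markers, 16 rose, 13 fell and 21 did not pass (median 0.08). Over all well-measured genes 17.2% rose and 24.1% fell, so the falls were near that share and the rises above it. With scaling by library totals 22 rose and 10 fell (median 0.26). Some secreted IL-4 products were much higher in the 14-3-3ε knockout. Retnla, a resistin-like protein induced through STAT6, was at 71336, 52527 and 42719 against 12189.8, 16430.0 and 12008 (log2 fold change 2.02 ± 0.22 SE, adjusted p = 0.00115). No library of one knockout reached the range of the other. The chitinase-like gene Chil4 was at 456, 518 and 682 against 63.2, 51.6 and 53.6 (log2 fold change 3.26 ± 0.16 SE, adjusted p = 5.75e-06). Its close relative Chil3 was at 32684, 40599 and 32681 against 50491, 41187 and 49775, lower in the 14-3-3ε knockout (log2 fold change -0.42 ± 0.11 SE, adjusted p = 0.0234). That call was lost without PGRN-knockout replicate 1 or 3 (adjusted p = 0.0836 and 0.0902) and without 14-3-3ε-knockout replicate 1 or 3 (0.0707 and 0.0782). With all 6 groups in the fit neither Chil3 nor Arg1 passed (adjusted p = 0.432 and 0.753). Chil3 and Chil4 have near-identical sequences, so reads may have been divided between them. Ch25h, which makes 25-hydroxycholesterol, was at 418, 580.1 and 514 against 176, 168 and 181 (log2 fold change 1.51 ± 0.12 SE, adjusted p = 4.14e-05), and the lectin gene Mgl2 at 16701, 16688 and 11404 against 7417, 7009.6 and 6664 (log2 fold change 1.07 ± 0.15 SE, adjusted p = 0.00244). Other IL-4 genes were lower, among them the beta-glucan receptor gene Clec7a, at 3904, 4028 and 3475 against 10020.2, 11119 and 10638 (log2 fold change -1.48 ± 0.07 SE, adjusted p = 5.14e-06), and the transcription factor gene Egr2, at -0.86 (adjusted p = 8.97e-05). Arg1, Irf4 and Clec10a had log2 fold changes of 0.25 (adjusted p = 0.0294), 0.27 (adjusted p = 0.12) and 0.85 (adjusted p = 0.0362). Arg1 lost its call without PGRN-knockout replicate 3 or 14-3-3ε-knockout replicate 1 or 2 (0.121, 0.081 and 0.0978), and Clec10a without PGRN-knockout replicate 1 or 3 or 14-3-3ε-knockout replicate 2 (0.104, 0.0832 and 0.0824).

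Of 29 chemokine and receptor genes 9 rose, 4 fell and 16 did not pass. Their median was 0.45, and 0.14 over the 18 with at least 5 CPM in 3 libraries. Cxcl14 was at 1209, 1352 and 1046 against 206, 294 and 169 (log2 fold change 2.46 ± 0.21 SE, adjusted p = 0.000332), Pf4 at 1229.7, 1416 and 1295 against 452, 572 and 457 (log2 fold change 1.42 ± 0.10 SE, adjusted p = 2.9e-05) and the monocyte attractant Ccl12 at 358, 279 and 333 against 96.4, 133 and 82.8 (log2 fold change 1.65 ± 0.18 SE, adjusted p = 0.000259). All 3 were higher in every 14-3-3ε-knockout library. The inflammatory chemokines Ccl3 and Ccl4 went the other way, falling by 1.04 and 0.88 (adjusted p = 8.67e-05 and 0.000718). Of 27 M1 markers 7 rose and 5 fell, with 4 rises without 14-3-3ε-knockout replicate 2. Cd40, a co-stimulatory receptor, was at 389, 329 and 298 against 117, 161 and 133 (2.46-fold, adjusted p = 0.000239), and the cytokine signalling inhibitor Socs3 rose by 0.65 (adjusted p = 0.000495). Among 35 NF-kB targets 13 fell and 3 rose (median -0.21), and 8 fell with scaling by library totals. Bcl2a1b, a survival factor, was at 1066, 883 and 803 against 3713, 3073 and 3620.2 (log2 fold change -1.92 ± 0.12 SE, adjusted p = 2.96e-05), though near-identical copies of this gene could share its reads. Plek, Tnfaip2 and Malt1 fell by 1.42, 0.93 and 0.79 (adjusted p = 3.84e-06, 2.9e-05 and 3.37e-05).

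Interferon genes did not move together. Of 39 type I interferon genes 7 rose and 8 fell (median -0.08, and 0.10 with scaling by library totals, where 5 fell). Without PGRN-knockout replicate 2 there were 11 rises. Xaf1, a pro-apoptotic interferon-induced gene, was at 863, 876 and 754 against 120.2, 180.4 and 158 (log2 fold change 2.45 ± 0.15 SE, adjusted p = 1.91e-05), whereas the antiviral gene Rsad2 was at 60.8, 55.8 and 57.6 against 126, 179 and 162 (log2 fold change -1.39 ± 0.16 SE, adjusted p = 0.000295). Among 33 genes of the interferon gamma response 4 rose and 9 fell, led by the falls of Cd274, which encodes the checkpoint ligand PD-L1 (-1.31, adjusted p = 3.34e-05), the class I gene H2-D1 (-0.63, adjusted p = 0.000217) and the transcription factor gene Irf8 (-0.82, adjusted p = 0.000274). Without PGRN-knockout replicate 3 there were 2 rises, and with scaling by library totals 7. Over all well-measured genes 17.2% rose and 24.1% fell. The main counts of both interferon lists were near those shares and are not read as a result about these lists. The class II list had a high median of 0.74, but 2 of 12 genes rose and 2 fell. The rises numbered 1 without any 1 of the PGRN-knockout replicates or 14-3-3ε-knockout replicate 2, and 4 without 14-3-3ε-knockout replicate 3. Those that fell were the lysosomal protease gene Ctss, at 34071, 39356 and 36381 against 78898, 62972 and 81996 (log2 fold change -1.02 ± 0.11 SE, adjusted p = 0.000211), and the lysosomal reductase gene Ifi30 (-0.63, adjusted p = 0.000173), and H2-DMb2, a subunit of the peptide exchanger, was at 114, 90.1 and 60.2 against 36.7, 35.7 and 39.8 (log2 fold change 1.17 ± 0.24 SE, adjusted p = 0.00601). The class II chain genes H2-Ab1 and H2-Eb1 had log2 fold changes of 1.21 and 1.37, with wide spread between the libraries (adjusted p = 0.173 and 0.162).

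Cell division genes were higher in the 14-3-3ε knockout, and here the mitotic list was complete: 36 of 36 genes rose and 0 fell (median 0.91). Under the alternatives tried, 35 or 36 of them rose. The share of all well-measured genes that rose was 17.2%. Ccna2, cyclin A2, was at 1958, 1983 and 1881 against 1036, 974 and 936 (log2 fold change 0.98 ± 0.06 SE, adjusted p = 1.11e-05). Cdc20, an activator of the anaphase-promoting complex, was at 1254, 1172 and 1106 against 543, 558 and 490.5 (log2 fold change 1.15 ± 0.07 SE, adjusted p = 1.73e-05), and Ube2c, its ubiquitin-conjugating enzyme, at 1192, 1156 and 1065 against 553, 513 and 474 (log2 fold change 1.15 ± 0.08 SE, adjusted p = 1.91e-05). Nusap1, a spindle protein, rose by 1.03 (adjusted p = 2.21e-05). All these genes were about 2-fold higher, with no overlap between groups. Of 33 DNA replication genes 22 rose and 1 fell (median 0.38). That count was less stable: 9 and 14 rose without PGRN-knockout replicates 3 and 2, and 12 and 11 without 14-3-3ε-knockout replicates 1 and 2. Tyms, thymidylate synthase, was at 1034, 994 and 967 against 413, 362 and 372 (log2 fold change 1.38 ± 0.07 SE, adjusted p = 6.49e-06), and the ribonucleotide reductase genes Rrm1 and Rrm2 rose by 0.73 and 0.69 (adjusted p = 4.35e-05 and 0.000503). These bulk values do not tell macrophages from other dividing cells.

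Promoters of Cdc20 and Ube2c are shown because they hold, in the 250 bases before the start, TTTGAA (the letters of the cell-cycle homology region) and CCAAT (the letters bound by NF-Y), and that of Msmo1 because its CCAAT letters are shared with nearly all cholesterol genes, which moved the other way. Capitals mark TTTGAA and CCAAT, or their reverse complements, in the first 2 and CCAAT in the last. The windows, from RefSeq on GRCm38.p6, are chr4:118437344-118437593, minus strand (Cdc20), chr2:164769679-164769928, plus strand (Ube2c) and chr8:64733579-64733828, minus strand (Msmo1).
Cdc20: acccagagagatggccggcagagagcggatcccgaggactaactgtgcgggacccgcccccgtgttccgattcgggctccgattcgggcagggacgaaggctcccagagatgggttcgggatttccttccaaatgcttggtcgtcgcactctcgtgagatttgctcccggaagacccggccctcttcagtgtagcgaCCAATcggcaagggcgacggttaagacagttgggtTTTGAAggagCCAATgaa
Ube2c: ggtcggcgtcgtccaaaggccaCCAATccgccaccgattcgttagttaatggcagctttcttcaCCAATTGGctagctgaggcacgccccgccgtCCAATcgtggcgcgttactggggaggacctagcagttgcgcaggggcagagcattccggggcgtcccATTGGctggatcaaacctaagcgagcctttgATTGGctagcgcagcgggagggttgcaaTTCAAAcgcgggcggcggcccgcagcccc
Msmo1: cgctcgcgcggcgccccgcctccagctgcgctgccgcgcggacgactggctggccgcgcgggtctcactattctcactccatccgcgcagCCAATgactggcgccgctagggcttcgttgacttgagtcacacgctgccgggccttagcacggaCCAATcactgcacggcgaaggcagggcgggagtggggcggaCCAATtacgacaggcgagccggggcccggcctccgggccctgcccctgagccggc

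CCAAT was found in 24 of 31 mitotic genes with a promoter (77.4%), 17 of 27 DNA replication genes (63%) and 16 of 17 cholesterol genes (94.1%), against 39.7% of genes tested in M2 and 37.5% of all genes. TTTGAA was found in 11 of 31 mitotic genes (35.5%) against 13.1% of genes tested in M2 and 18.3% of all genes. Both strands were searched, and a gene was counted if any of its starts had a match. Adjoining matches can share end bases, and letters this short occur in many promoters.

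Genes listed as markers of stromal cells moved with the comparison. The 22 stromal genes summed to 33010.2 to 41786 CPM in the 14-3-3ε-knockout libraries and 15174 to 19726 CPM in the PGRN-knockout libraries, ranges that did not overlap, and 12 of 22 rose while 0 fell (median 0.80). None of the 22 was at 0 in these libraries. Col1a1, a chain of type I collagen, was at 158142, 134184 and 189386 against 64769.9, 76456 and 72630.2 (log2 fold change 1.16 ± 0.13 SE, adjusted p = 0.000366). Acta2, smooth muscle actin, was at 66016, 64791 and 69981 against 23410.5, 28761 and 26583 (log2 fold change 1.35 ± 0.08 SE, adjusted p = 1.2e-05). The transcripts of Col1a1, Col1a2 and Col3a1 together made up 1.64% to 2.33% of reads in the 14-3-3ε knockout and 0.722% to 0.909% in the PGRN knockout. Of the 10 genes that rose most in CPM, the ones other than Grn and Retnla were of this kind: beside Col1a1 and Acta2 they were Thbs1 (1.27, adjusted p = 4.14e-05), Lox (1.36, adjusted p = 7.46e-05), Fn1 (0.78, adjusted p = 0.000173), Sparc (0.91, adjusted p = 0.000222), Col1a2 (1.06, adjusted p = 0.000177) and Col3a1 (0.98, adjusted p = 0.0137), the last of which lost its call without PGRN-knockout replicate 1 (adjusted p = 0.0536). Among 25 matrix proteases and inhibitors 7 rose and 10 fell: the inhibitor Timp1 rose by 0.72, and Mmp12, the macrophage elastase, fell by 1.12 (adjusted p = 0.000229 and 0.000111). Bulk RNA does not show which cells these transcripts came from. The part of any stromal cells in the lysosomal, lipid, mitotic and other results was not tested.

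The lists of other lineages summed to far less. Basophil and mast cell genes summed to 18.3 to 56.9 CPM in the 14-3-3ε knockout and 12.2 to 25.4 CPM in the PGRN knockout, overlapping ranges, and 3 of 12 rose (5 without PGRN-knockout replicate 2). The basophil proteases Prss34, at 90.6, 44.0 and 56.0 against 7.47, 11.1 and 7.66 (log2 fold change 2.68 ± 0.32 SE, adjusted p = 0.00036), and Mcpt8, at 71.0, 32.2 and 34.8 against 9.51, 15.8 and 13.8 (log2 fold change 1.68 ± 0.35 SE, adjusted p = 0.00714), were higher in every 14-3-3ε-knockout library. B and plasma cell genes summed to 151 to 206 against 45.3 to 134 CPM, neutrophil genes to 244 to 379 against 126 to 276, dendritic cell genes to 198 to 234 against 208 to 241, eosinophil genes to 13.2 to 15.3 against 23.4 to 26.8, adipocyte and endothelial genes to 297 to 538 against 265 to 511, and erythroid and megakaryocyte genes to 113 to 131 against 50.1 to 69.5. Slc4a1, the band 3 protein gene of red cells, was at 0 in all 6 libraries, as was the adipocyte hormone gene Lep. The T and NK list summed to 48.6 to 56.5 against 169 to 197 CPM, lower in the 14-3-3ε knockout, and nearly all of it came from Cd4 and Il7r, which macrophages can also express. The defining T cell genes Cd3d, Cd3e and Cd3g each had under 0.1 CPM in both knockouts. Cd4 was at 75.0, 15 and 33.9 against 979, 930.1 and 788 (log2 fold change -4.68 ± 0.58 SE, adjusted p = 0.00305), and the T cell receptor gene Trac, at 7.44, 11.8 and 15.3 against 2.72, 3.71 and 1.53 normalized counts, gave the opposite sign (1.77, adjusted p = 0.0138) and lost its call without 14-3-3ε-knockout replicate 3 (adjusted p = 0.0577).

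The largest single differences were of several kinds. Lower in the 14-3-3ε knockout were genes of the Serpina3 cluster of protease inhibitors on chromosome 12. Serpina3h was at 10.1, 13.9 and 11.9 against 390.5, 508 and 464 (log2 fold change -5.13 ± 0.17 SE, adjusted p = 1.37e-06), Serpina3i at 8.79, 8.58 and 5.09 against 245, 343 and 280.5 (log2 fold change -5.12 ± 0.24 SE, adjusted p = 4.98e-06) and Serpina3f had a log2 fold change of -2.99 (adjusted p = 0.00154). These are near-identical copies whose reads the authors' counting may have divided, and the annotation lists Serpina3h as a pseudogene. Igf2bp3, a fetal RNA-binding protein, was at 10.8, 8.58 and 7.63 against 447, 194 and 388 (log2 fold change -5.03 ± 0.31 SE, adjusted p = 1.93e-05). The adaptor gene Bex1, on the X chromosome, was at 147, 212 and 175 against 2673, 2085 and 2763 (log2 fold change -3.81 ± 0.16 SE, adjusted p = 1.11e-05), and the organic anion transporter gene Slco2b1 at 131, 55.8 and 40.7 against 733, 805 and 733 (log2 fold change -3.48 ± 0.43 SE, adjusted p = 0.00251). Gpd1, glycerol-3-phosphate dehydrogenase, Padi4, an arginine deiminase, and Npy, neuropeptide Y, fell by 3.48, 3.63 and 3.12 (adjusted p = 3.74e-05, 0.000709 and 0.00241), with further falls of Rab6b (-3.66, adjusted p = 4.66e-06), Eef1a2 (-3.37, adjusted p = 3.76e-05) and Ccdc148 (-3.93, adjusted p = 2.48e-05). Npy did not pass with precision weights on the recovered reads (adjusted p = 0.0627). In all of these the groups did not overlap. Erdr1, which lies on the part shared by the sex chromosomes, was at 17.6, 63.3 and 22.9 against 593, 787 and 846 (log2 fold change -4.59 ± 0.49 SE, adjusted p = 0.0013), highest within its group in replicate 2. Named rises of protein-coding genes included the citrate carrier gene Slc13a5, at 374, 447 and 1121 against 37.3, 41.1 and 33.7 (log2 fold change 3.90 ± 0.41 SE, adjusted p = 0.00101), Gdpd3, a lysophospholipase D (4.05, adjusted p = 7.81e-06), the carboxylesterase gene Ces1g (3.95, adjusted p = 5.57e-05), Ptgis, prostacyclin synthase (3.62, adjusted p = 0.0017), and Mfap5, a microfibril protein (3.36, adjusted p = 1.1e-05).

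Many of the steepest rises belonged to processed pseudogenes and retrocopies. Of 124 called genes that differed more than 8-fold, 42 (33.9%) were annotated as pseudogenes, against 9.16% of the genes tested. Of these 42, 31 were higher and 11 lower. Over all 1690 pseudogenes tested, 178 (10.5%) passed the threshold, against 29.5% of all genes tested. For 6 of the copies named among the largest rises the gene of origin was read beside them, a choice made after their values were seen. Rps3a3 had a mean normalized count of 3556 against 42.6 (log2 fold change 6.97, adjusted p = 0.00477), and its source Rps3a1 one of 8451 against 15786 (-0.91, adjusted p = 6.1e-05). Rps13-ps1 had 2215 against 127 and Rps13 1591 against 2784. Tpm3-rs7 had 3476 against 174 and Tpm3 9146 against 12948, and the sum of this pair differed by -0.06 on the log2 scale. The sums of the other pairs differed in both directions, by 0.48 for Eno1, 0.38 for Rps13, -0.27 for Rps15a, -0.40 for Rps3a1 and -0.70 for Rplp0. Each sum holds the gene and the single copy named, not all copies of the gene. Pseudogenes with predicted names entered none of the sums, among them Gm8730 at 10284 against 49.9. The sums therefore do not show whether a gene and all its copies together differed. Eno1b had 12335 against 12.9, while Eno1, the glycolytic enolase, was at 14665 against 19337 (-0.43, adjusted p = 0.136). In each of the 6 pairs, which also included Rplp0 with Rplp0-ps1 and Rps15a with Rps15a-ps8, the copy was higher and its source lower in the 14-3-3ε knockout, and for Eno1 the source did not pass the test. Each of these levels is uncertain, because reads of a gene and its near-identical copy can be assigned to either. The same holds for Rplp0 (-0.74, adjusted p = 3.34e-05) and Rpl3 (-1.34, adjusted p = 1.88e-06), the largest of 5 falls among 52 ribosomal protein genes, whose median was -0.02. None of them rose, but with scaling by library totals 25 rose and 2 fell (median 0.16). The ribosomal count was 2 without PGRN-knockout replicate 3 and 3 without PGRN-knockout replicate 1 or 14-3-3ε-knockout replicate 1.

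The same genotypes in M1 gave a similar picture for most, but not all, of these genes. In M1, 6312 of 18627 genes passed (33.9%). The genes called in M2 and called the same way in M1 numbered 3392, which is 62.3% of the M2 calls and 53.7% of the M1 calls, and 112 were called in opposite directions. The M1 libraries were not taken as an independent repeat. Deviations from the group mean correlated between M1 and M2 libraries of the same number at 0.45 to 0.56 in the 14-3-3ε knockout, each best with its own number. In the PGRN knockout the values were 0.127, 0.44 and 0.053, and replicates 1 and 3 did not correlate best with their own number. The 14-3-3ε-knockout replicate 2 had high Xist in M1 too (1306 normalized counts). Whether M1 and M2 libraries came from the same animals is not given. For the M1 list counts below, the only background is the 33.9% called in either direction over all genes tested. A share for well-measured genes, or for each direction, was not worked out in M1. In M2 the share called was 29.5% of all genes tested and 41.3% of well-measured ones. The V-ATPase list had 17 of 18 genes lower in M1 (median -0.73), the hydrolases 35 of 48 (median -0.73), the membrane list 26 of 34 (median -0.61) and lipid handling 21 of 28 (median -0.83). Fewer mitotic genes were called in M1, 15 of 36, with a median of 0.72, and the difference between M2 and M1 was called for 1 of them. Stromal genes were higher in M1 as in M2, with 16 of 22 called. Other lists differed between the states. In M1, 24 of 41 type I interferon genes fell and 5 rose (median -0.33). Of 34 interferon gamma genes 25 fell and 1 rose (median -0.39). Of 33 glycolysis and HIF1 genes 20 rose and 4 fell (median 0.35). The M2 minus M1 difference was called above 0 for 10, 6 and 0 of these genes, respectively. It was called below 0 for 0, 1 and 12. The osteoclast and fusion list had a median of 0.05 in M1.

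**Figure D4:**
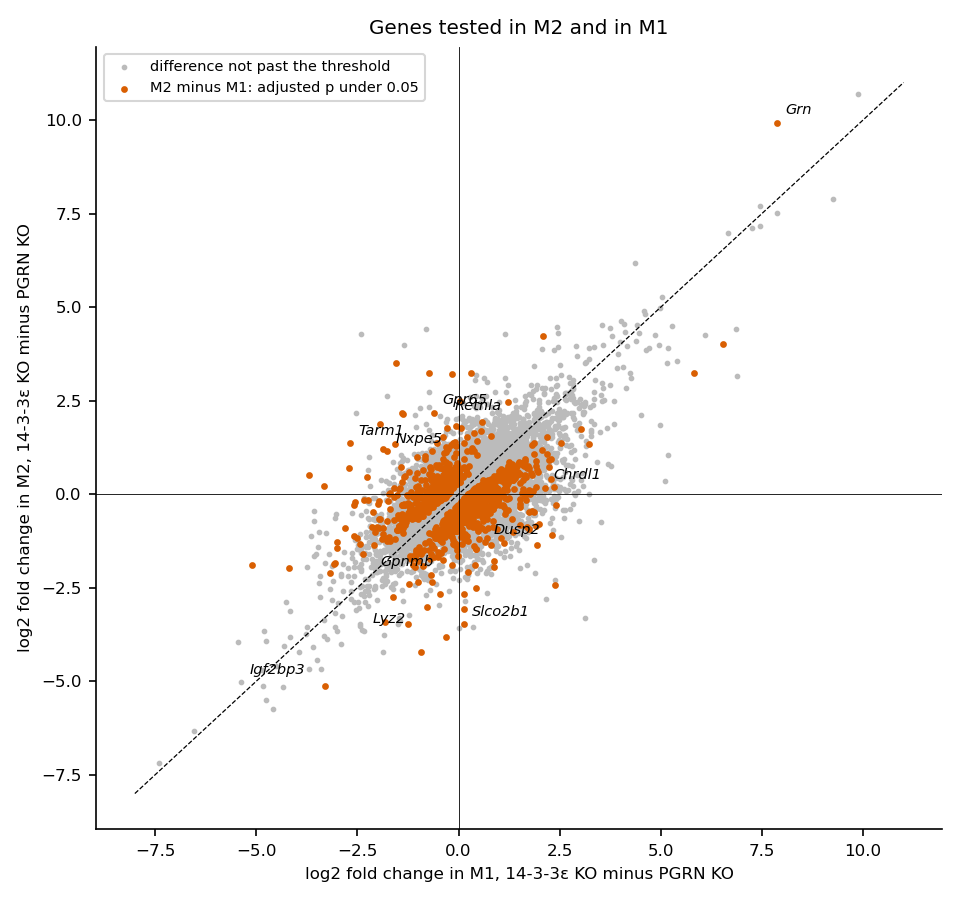
Log2 fold change of 14-3-3ε knockout minus PGRN knockout in M2 (y axis) against the same in M1 (x axis) for genes tested in both; orange marks genes whose M2 and M1 differences differed (adjusted p under 0.05) and the dashed line marks equality. Igf2bp3 and Gpnmb lie near or beyond the line at the lower left, and Grn at the upper right. Tarm1 and Nxpe5 are higher in M2 and lower in M1, and Slco2b1 is lower in M2 only.

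The difference itself, M2 minus M1, passed for 1382 genes, 6.84% of those tested, with 566 values above 0 and 816 below. The count fell to 856 without PGRN-knockout M2 replicate 3, to 902 without 14-3-3ε-knockout M2 replicate 2 and to 878 without PGRN-knockout M1 replicate 1. For 110 of the genes, the knockouts differed in opposite directions in M2 and M1. Gpr65, a proton-sensing receptor, was at 1110.0, 1319 and 1162 in the 14-3-3ε knockout and 247, 246 and 299 in the PGRN knockout in M2. In M1 it was at 1295, 1376 and 1022 against 1907, 1559 and 2124. Its level in the 14-3-3ε knockout was similar in both states, and in the PGRN knockout it was low in M2 and high in M1 (difference 2.78 ± 0.19 (SE), adjusted p = 4.43e-05). Tarm1, an activating receptor of myeloid cells, was at 203, 224 and 150.1 against 69.3, 72.8 and 76.6 in M2, and at 119, 169 and 41.3 against 634, 593 and 591 in M1 (difference 4.04 ± 0.57, adjusted p = 0.00274). Nxpe5 and the endothelin receptor gene Ednrb followed the same order, with differences of 2.92 and 2.93 (adjusted p = 0.000134 and 0.00241). Cd40 was higher in the 14-3-3ε knockout in M2, and in M1 the groups overlapped: it was at 837, 973 and 801 against 931, 939 and 868 (difference 1.37 ± 0.17, adjusted p = 0.000675).

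Other genes differed the opposite way. Slco2b1 was nearly silent in M1, at 7.06, 7.54 and 6.35 in the 14-3-3ε knockout and 4.09, 7.47 and 7.90 in the PGRN knockout, so its M2 difference had no counterpart there (difference -3.61 ± 0.50, adjusted p = 0.0012). Dusp2, a nuclear phosphatase of MAP kinases, was at 70.3, 86.9 and 74.6 against 185, 183 and 195 in M2, and at 409, 349.6 and 255 against 217, 219 and 192 in M1. It was thus lower in the 14-3-3ε knockout in M2 and higher in M1 (difference -1.94 ± 0.21, adjusted p = 0.000276). Malt1, a paracaspase of NF-kB signalling, was lower in the 14-3-3ε knockout in M2, and at 341, 463 and 392 against 381, 346 and 417 in M1 (difference -0.85 ± 0.14, adjusted p = 0.00388). The sortilin gene Sort1 was at 639, 569 and 529 against 612, 632 and 662 in M1, so that its M2 fall was not repeated there (difference -1.08 ± 0.12, adjusted p = 0.000299). Gpd1 fell in both states and further in M2 (-3.48 against -1.25). Rnase2a, a secreted ribonuclease of myeloid cells, was at 10298, 6104 and 5274 against 1351, 1177 and 1191 in M2 and at 1.21, 0 and 0 against 2.05, 0 and 0.930 in M1, where it was almost absent. Its M2 minus M1 value, and those of Chil4 and Cxcl11, rest on a state in which both knockouts were near 0 and so depend on the pseudocount.

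**Figure D5:**
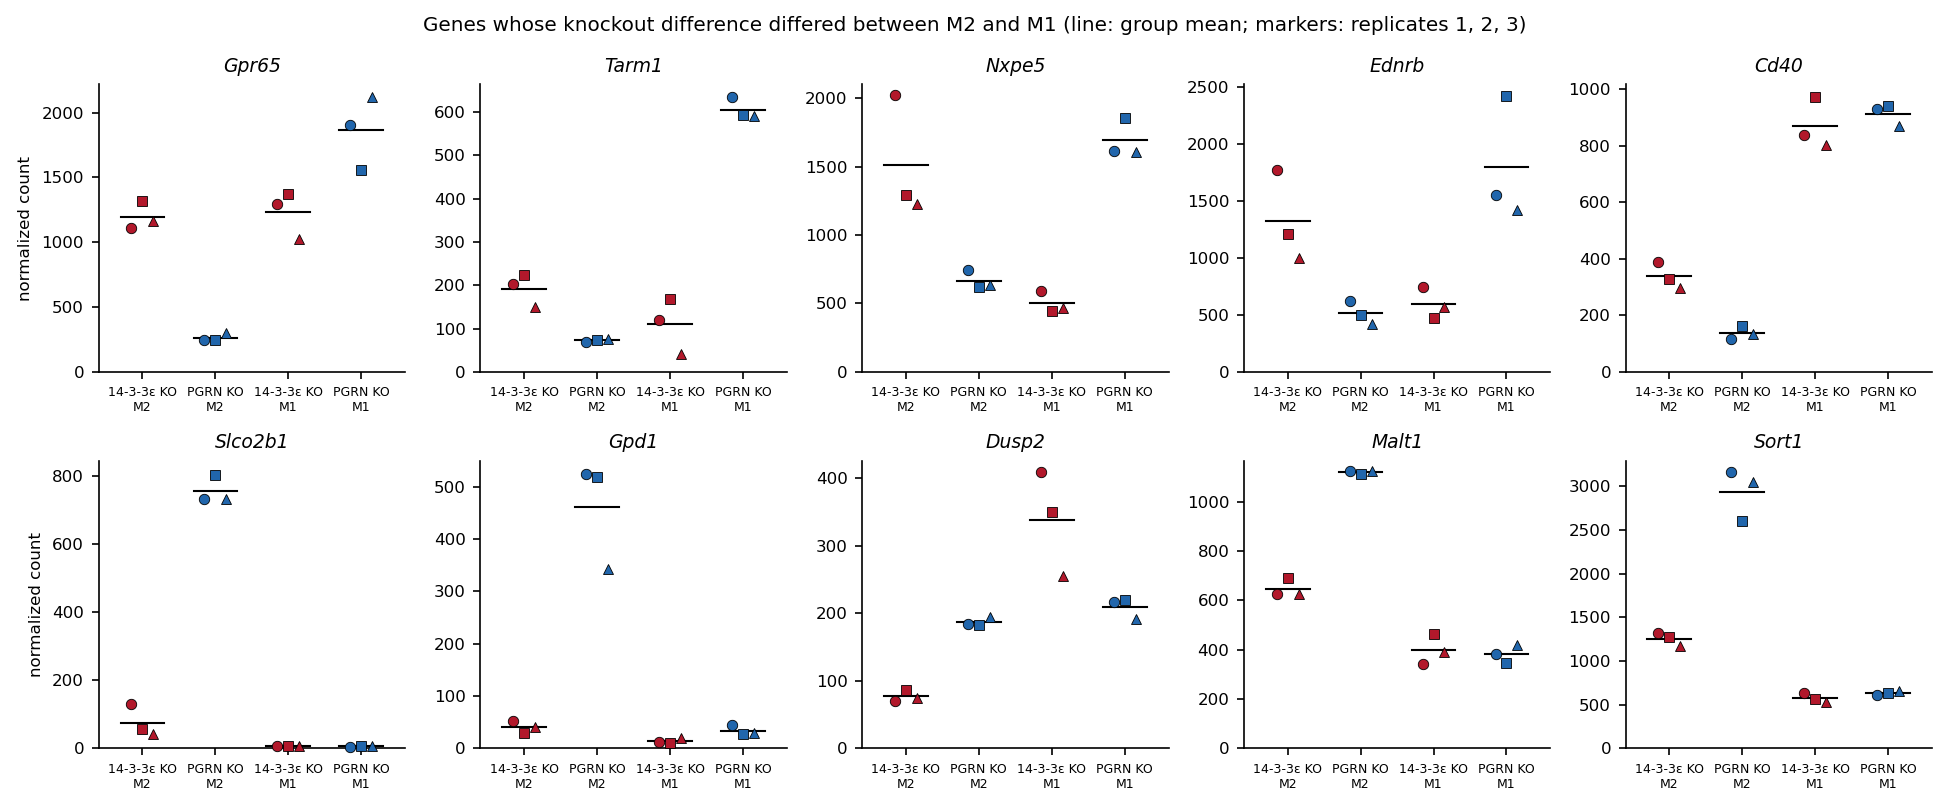
Normalized counts (y axis, linear, starting at 0) of 10 genes in the 12 knockout libraries, by genotype and polarization; markers are replicates 1, 2 and 3 and lines are group means. In M2, Gpr65, Tarm1, Nxpe5, Ednrb and Cd40 are higher in every 14-3-3ε-knockout library and the lower row is lower in every one, and these orders reverse or vanish in M1 except for Gpd1.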

How the data were processed

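RNA-seq libraries of bone marrow-derived macrophages were analysed from 1 deposited matrix of 43309 genes by 18 samples. Its values are log2(normalized count + 1): the deposited counts had been scaled by a size factor per library before the log2 step, and the submitters' processing notes name STAR, RSEM 1.3.1 and DESeq2. The notes name the human build GRCh38, while the gene identifiers in the deposited log2 matrix are those of mouse; positions here are from GENCODE M21 on GRCm38, to which 42425 identifiers matched. Read counts per gene were recovered from the step of each library, and all values came out whole within 0.1 of a read.

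The 14-3-3ε and PGRN knockouts were compared with limma 3.58.1 in R 4.3.3 (lmFit, eBayes with trend and robust settings) on log2(normalized count + 1), with a pseudocount of 1, a filter of 1 normalized count in 3 libraries and Benjamini-Hochberg adjustment over all genes tested. Fold changes on this scale understate changes of low genes. M2 and M1 were each fitted on their own 6 libraries and M2 minus M1 on 12. Members and the 44 gene lists were chosen with earlier results of these data known. On simulated data of the M2 comparison (18742 genes, 200 changed) 75% of 2-fold and 92% of 4-fold changes were recovered, and 9 unchanged genes were called. The changed genes were drawn only from genes with a higher mean count than the filter asks for. These rates therefore do not cover the lowest genes tested. Genes named are the targeted genes, the 15 largest rises and falls by log2 fold change and the 10 by CPM among called genes with non-overlapping groups, a mean of at least 5 CPM and a symbol not of a predicted gene, the 8 and 8 largest M2 minus M1 differences, up to 4 genes per list with the smallest p, and cell type markers. A few of these are not reported here. Depth was 13654295 to 58782676 reads in M2 and 9587822 to 105315616 in M1. Alternatives were another pseudocount, filters, scaling by library totals, precision weights, thinning, a replicate block, other groups in the fit and each library left out.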

Additional observations from a re-analysis of the deposited data

Results flagged for a closer look

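For the 53 named genes given here the difference between the knockouts was not the same in M2 as in M1 (adjusted p under 0.05 for M2 minus M1, limma, 12 libraries). Each value below is that difference of log2 fold changes, positive where the 14-3-3ε knockout was relatively higher in M2. Values of 2 or more were Tarm1 4.04, Apol9b 3.38, Chil4 3.10, Rnase2a 2.95, Pnp2 2.95, Ednrb 2.93, Nxpe5 2.92, Gpr65 2.78 and Grn 2.05. Grn stands in this group because its small remaining level in the PGRN knockout differed between the states: it was at 497, 212 and 231 in M1 and 24.4, 23.9 and 32.2 in M2.

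Smaller positive differences were H2-DMb2 1.81, Cd40 1.37, Ccl12 1.28, Csf3r 1.26, Xaf1 1.24, Rragd 1.21, Fabp5 1.07, Ifi27l2a 0.96, Lgals3 0.74, Cd68 0.62, Socs3 0.61, Sqstm1 0.60 and Mfsd12 0.42. Among these, Cd68, Lgals3, Rragd, Fabp5, Mfsd12 and Sqstm1 were lower in the 14-3-3ε knockout in both states, and less so in M2. A positive value is therefore not in itself a higher level in the 14-3-3ε knockout in M2.

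Negative differences of 1 or more in size were Slco2b1 -3.61, Cxcl11 -2.44, Gpd1 -2.23, Rbp4 -1.98, Chrdl1 -1.96, Dusp2 -1.94, Nrcam -1.90, Pilrb1 -1.88, Serpina3h -1.84, Cd14 -1.47, Egr2 -1.37, Plaur -1.25, Itgam -1.22, Sort1 -1.08 and Bcl2a1b -1.05. The remaining negative differences were Malt1 -0.85, Sesn1 -0.77, Cebpa -0.73, Sc5d -0.71, Fth1 -0.66, Gabarapl1 -0.60, Tnfaip2 -0.55, Tsc1 -0.50, Acta2 -0.50, Plek -0.45, Pld3 -0.44, Ostm1 -0.42, Pnpla2 -0.41, Ywhah -0.39, Atp6v1b2 -0.30 and Hsp90b1 -0.23. Cxcl11 was close to 0 in every M2 library, at 0.676, 0 and 0 and 0, 0.337 and 0 normalized counts, so its value rests on M1. Rnase2a and Chil4 were likewise almost absent in M1, with Chil4 at 0.404, 0 and 0 and 0, 0 and 0 there. With a pseudocount of 0.1 the differences of Chil4, Cxcl11 and Rnase2a did not pass (adjusted p = 0.124, 0.254 and 0.238), nor with precision weights on the recovered reads (0.115, 0.542 and 0.489). That of Apol9b did not pass with a pseudocount of 0.1 (0.127), without PGRN-knockout M2 replicate 1 (0.0548) or without 14-3-3ε-knockout M2 replicate 2 (0.0575). That of Pnp2 did not pass with all 6 groups in the fit (0.223) or with libraries thinned to the shallowest (0.114).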

How the results depend on the processing

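The number of genes called in M2 (5441) stayed within 1.5 times under every alternative tried, between 4074 with all 6 groups in the fit and 6393 with scaling by library totals, and 3850 to 5404 with each library left out. The M1 count (6312) ran from 4998 to 7304, and 4729 to 6306 with each library left out. Every gene called in the main setting and again under an alternative had the same sign in both. The M2 minus M1 count (1382) was 509 with all 6 groups in the fit and 856 to 1443 with each of the 12 libraries left out. The cause was not tested, though fewer samples were fitted in the latter. Of 202 named genes past the threshold in M2, 174 kept their call in every alternative in which they were tested, and none of 229 reversed with a call. Of 16 named for M2 minus M1, 11 kept it.

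Pairing by replicate number was checked from the deviations of same-numbered libraries. Between genotypes they correlated at -0.263 to 0.0436 in M2 and -0.188 to 0.0341 in M1, so the numbers do not pair the genotypes, and 2 of 3 libraries in each state did not correlate best with their own number. A replicate block gave 4401 calls in M2, 4998 in M1 and 1272 for M2 minus M1. Within a genotype, M1 and M2 libraries of a number correlated at 0.053 to 0.56. PGRN-knockout replicates 1 and 3 did not correlate best with their own number. A replicate block within genotype, added after seeing the data, assumes that pairing in both knockouts. It gave 2389 genes for M2 minus M1, of which 1344 were shared with the main setting. The shallowest M2 library was PGRN-knockout replicate 3, with 13654295 reads. Thinning the M2 libraries to its depth gave 4947 calls, and leaving it out gave 3850.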

Other observations

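Stress and metal genes lay mostly on the low side in the 14-3-3ε knockout. Of 27 genes of the NRF2 oxidative response 17 fell and 1 rose (median -0.44), and of 19 iron genes 11 fell and 3 rose (median -0.35). Fth1, the ferritin heavy chain that stores iron, was at 57552, 57976 and 57284 against 151656, 133478 and 152768 (log2 fold change -1.34 ± 0.07 SE, adjusted p = 6.57e-06), and the light chain gene Ftl1 at 132952, 138825 and 124882 against 280148, 219411 and 264977 (log2 fold change -0.94 ± 0.10 SE, adjusted p = 0.000157). Ncoa4, the receptor that delivers ferritin to lysosomes, was at 3035, 3391 and 2777 against 7820.0, 7185 and 7499 (log2 fold change -1.29 ± 0.08 SE, adjusted p = 1.18e-05). Slc11a1 and Slc11a2, metal transporters of phagosomes and endosomes, fell by 1.05 and 0.75, and Gpx4 and Cat, which remove peroxides, by 0.85 and 0.75 (adjusted p = 4.62e-05, 7.85e-05, 4.69e-05 and 6.63e-05). Among 26 inflammasome and cell death genes 14 fell and 3 rose. That number of falls was 9 without PGRN-knockout replicate 1 or 3 or 14-3-3ε-knockout replicate 3, and with scaling by library totals. The flagellin sensor gene Naip5 was at 170.4, 159.8 and 126 against 472, 369.6 and 454 (adjusted p = 9.03e-05), and the inflammasome gene Nlrp1b was at 352, 356 and 311 against 119, 87.7 and 115 (log2 fold change 1.67 ± 0.13 SE, adjusted p = 4.52e-05). Naip5 and Nlrp1b are known to vary between inbred strains, and the labels give C57BL/6 for every library. Nnt, of which the C57BL/6J substrain lacks several exons, was at 834, 771 and 705 against 587, 560.1 and 484 (log2 fold change 0.50 ± 0.09 SE, adjusted p = 0.00354), and gene-level values do not show which exons were read. The part of genetic background in these values was not tested.

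Energy genes were called in both directions. Of 33 glycolysis and HIF1 genes 11 rose and 8 fell (median 0.04), and 5 fell with scaling by library totals. Over all well-measured genes 17.2% rose and 24.1% fell, so the glycolysis falls were near that share. Pfkl, the liver-type phosphofructokinase, was at 4463, 4283 and 4418 against 2373, 2618 and 2382 (log2 fold change 0.84 ± 0.06 SE, adjusted p = 2.26e-05), the lactate exporter gene Slc16a3 rose by 1.09 and the mitophagy receptor gene Bnip3 by 1.18 (adjusted p = 2.66e-05 and 3.34e-05), while the hexokinase gene Hk3 was at 4547, 4408 and 4538 against 11680.5, 9172 and 11411 (log2 fold change -1.25 ± 0.09 SE, adjusted p = 3.01e-05). Of 45 respiratory chain genes 1 rose and 3 fell (median -0.01), a smaller share than the 41.3% of all well-measured genes that were called. With scaling by library totals 22 rose and 0 fell. Among 23 genes of the unfolded protein response 11 rose and 5 fell, the falls again near the share of all well-measured genes. Without PGRN-knockout replicate 1 or 3 or 14-3-3ε-knockout replicate 2 the falls numbered 3. Herpud1, which acts in the degradation of misfolded proteins, was at 1539, 1349 and 1501 against 775, 873 and 756 (log2 fold change 0.87 ± 0.08 SE, adjusted p = 7.3e-05), and the ER folding genes Pdia6, Pdia3 and Hsp90b1 rose by 0.42, 0.36 and 0.38 (adjusted p = 0.000646, 0.000745 and 0.000772). ATF4 targets and amino acid stress genes went both ways, with 10 of 25 higher and 6 lower: Vldlr rose by 1.63, and Atf3 and Gpt2 fell by 1.22 and 1.07 (adjusted p = 0.000113, 2.96e-05 and 8.9e-05). Here too the falls were near the 24.1% of all well-measured genes that fell, and the rises were above the 17.2% that rose.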
